A study of Mus musculus with 12 samples.

Results

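The 10 genes followed here in mouse spinal cord carry glucose into cells, start, steer and finish glycolysis, and make or move lactate: Slc2a1, Slc2a3, Hk1, Hk2, Pfkfb3, Pkm, Ldha, Ldhb, Slc16a1 and Slc16a3. They were taken by symbol, and these 10 were found among the 56953 genes of both count tables. Messenger RNA was sequenced from whole spinal cords in 4 groups of 3 mice: controls and Ddx20 conditional knockouts (cKO), each at 4 and at 4.5 weeks after tamoxifen. The knockout came from crossing mice with loxP-flanked Ddx20 (Ddx20flox/flox) to a line carrying the tamoxifen-activated recombinase Plp-CreER, whose Plp promoter is active in oligodendrocyte-lineage cells and, outside the cord, in Schwann cells. The genotype of the controls, the tamoxifen dose and the ages of the mice are not given in the sources used here, and each library is described as an independent biological replicate.

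Glucose reaches the spinal cord through the transporter GLUT1 of vessel walls and glia (Slc2a1), and neurons take it up mainly through GLUT3 (Slc2a3). Inside a cell, hexokinase traps it by phosphorylation, phosphofructokinase commits it to glycolysis, pyruvate kinase makes pyruvate, and lactate dehydrogenase interconverts pyruvate and lactate. Lactate crosses membranes through monocarboxylate transporters: MCT1 (Slc16a1) is the carrier through which oligodendrocytes are known to supply axons, and MCT4 (Slc16a3) is known as an exporter of highly glycolytic cells.

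Levels are given in CPM, counts relative to the library total after scaling between libraries, and each library held 33104560 to 47677267 counts. A log2 fold change is the cKO-labelled libraries minus the controls of the same time, with its standard error (SE). A gene was called higher or lower at an adjusted p below 0.05 in edgeR's quasi-likelihood F test over 19278 genes, and each adjusted p of a gene below comes from that test. Intervals are 95% intervals of the same fit. Per-gene spreads are standard deviations (SD) over 3 libraries.

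The targeted gene stood no lower in the cKO-labelled libraries. Ddx20, a helicase of the complex that assembles splicing particles, stood at 11, 9.78 and 11.1 CPM in the controls and at 10.2, 11.1 and 9.9 CPM in the cKO-labelled libraries at 4 weeks. At 4.5 weeks it stood at 9.16, 10.6 and 9.71 CPM and at 12.4, 11.1 and 13.3 CPM. The log2 fold change was -0.03 ± 0.10 (SE; adjusted p = 0.84) and then 0.33 ± 0.10 (adjusted p = 0.013), a call lost without control library 1 (adjusted p = 0.060), library 3 of those labelled cKO (adjusted p = 0.063) or control libraries 1 and 2 together (adjusted p = 0.099). Counts over the whole gene in a whole cord do not check a deletion in 1 lineage, so the labels of the mice could not be checked on this gene. Summed markers of oligodendrocytes, cells in which the driver acts, were lower in all 6 cKO-labelled libraries, as given further on. Of these markers, Cldn11 overlapped between the labels at 4.5 weeks.

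Several libraries stood apart. Counts of Xist read all 3 controls at 4 weeks as male (0 to 2 counts), the cKO-labelled libraries at 4 weeks as 2 females (13563 and 14773 counts) and 1 male (3 counts), and all 6 libraries at 4.5 weeks as female. Control library 1 at 4.5 weeks held 284 CPM of Schwann cell and sensory ganglion markers, against 7.76 and 7.95 CPM in the other two. Control library 2 at 4.5 weeks held 217 CPM of skeletal muscle markers, against 4.27 and 16.2 CPM. At 4 weeks, library 3 of the cKO-labelled libraries held 38.9 CPM of the muscle markers, against 2.92 and 4.92 CPM, and control library 2 held 153 CPM of the Schwann cell and ganglion markers, against 68.2 and 74.4 CPM. Sex at 4 weeks is partly confounded with the label.

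The 4 genes of lactate handling moved in 2 opposed pairs, Ldha and Slc16a3 upward and Ldhb and Slc16a1 downward, so their promoter sequences are shown first. Each is the 250 bases before the gene's first start in RefSeq (build GRCm38.p6), 5′ to 3′ on the gene's strand. Capitals mark ACGTG or GCGTG on either strand, the core letters that the hypoxia-inducible factor is known to bind. CACGTG holds 2 overlapping matches, 1 on each strand. Slc16a3 lies on the plus strand at chr11:120948817-120949066, Slc16a1 on the plus strand at chr3:104638414-104638663, Ldha on the plus strand at chr7:46845554-46845803 and Ldhb on the minus strand at chr6:142507958-142508207.
Ldha: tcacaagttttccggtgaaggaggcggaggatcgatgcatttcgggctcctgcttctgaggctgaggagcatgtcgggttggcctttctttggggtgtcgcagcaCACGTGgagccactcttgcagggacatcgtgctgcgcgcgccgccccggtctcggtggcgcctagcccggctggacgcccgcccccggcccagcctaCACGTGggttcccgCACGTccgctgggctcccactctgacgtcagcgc
Slc16a3: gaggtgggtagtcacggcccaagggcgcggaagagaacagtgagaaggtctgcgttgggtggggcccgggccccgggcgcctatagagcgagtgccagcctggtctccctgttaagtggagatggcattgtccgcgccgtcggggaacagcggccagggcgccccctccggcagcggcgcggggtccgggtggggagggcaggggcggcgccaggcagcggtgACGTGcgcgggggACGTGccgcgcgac
Ldhb: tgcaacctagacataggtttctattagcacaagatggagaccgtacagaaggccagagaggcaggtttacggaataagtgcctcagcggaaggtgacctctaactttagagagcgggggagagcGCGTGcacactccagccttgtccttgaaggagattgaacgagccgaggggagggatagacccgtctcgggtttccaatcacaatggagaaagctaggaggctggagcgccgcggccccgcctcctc
Slc16a1: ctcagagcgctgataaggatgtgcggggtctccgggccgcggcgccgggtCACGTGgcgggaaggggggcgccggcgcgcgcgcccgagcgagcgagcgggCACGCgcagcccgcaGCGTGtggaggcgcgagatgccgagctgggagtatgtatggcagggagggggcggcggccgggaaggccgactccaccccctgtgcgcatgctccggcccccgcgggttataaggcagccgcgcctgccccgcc

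Ldha held 5 matches and Slc16a3 2, while Ldhb held 1 and Slc16a1 4, so matches occurred in promoters of genes that rose and of genes that fell. Among the other members, the first-start windows of Slc2a1 and Hk2 held 2 each, Pfkfb3 held 1, and those of Hk1 and Pkm held 0. Windows at a later start were also given for Hk1 and Pfkfb3, which held 3 matches each there, and for Pkm and Ldha, which held 1 each. Thus 7 of the 9 members with a window held at least 1 match at the first start. Over all starts 11 of 13 windows held at least 1, against 38.6% of 32851 promoter windows of that length, and 4 held at least 3, against 6.58%. The windows set beside the members were not matched for base composition. Some genes gave more than 1 window, and each CACGTG counted as 2 matches. Enrichment of the letters was therefore not tested. A match describes letters only, and Slc2a3 is named without a window.

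At 4 weeks 3 of the 10 genes were called higher in the cKO-labelled libraries (Slc16a3, Hk2 and Ldha), 1 lower (Slc16a1), and 6 were not called. Over all genes tested, 37.2% were called at 4 weeks, 20.1% higher and 17.2% lower, so 4 of 10 is near the background. By 4.5 weeks 4 were called higher, with Slc2a1 added, and 5 lower (Slc2a3, Hk1, Pkm, Ldhb and Slc16a1), against 65.9% of all genes called, 33.3% higher and 32.6% lower. The effect differed between the times in the 9 genes called at 4.5 weeks, 4 upward and 5 downward, against 40.7% of all genes (18.7% upward and 21.9% downward). Pfkfb3 was not called in any of these. The median log2 fold change of the 10 genes was -0.05 at 4 weeks and -0.29 at 4.5 weeks, beside 0.01 and 0.02 over all genes.

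A sex term in the model was set by the cKO-labelled libraries at 4 weeks alone, because only that group held both sexes. Its comparison at 4 weeks thus rested on their male, library 3, against the 3 male controls. Calls at 4 weeks that were kept with the term, as the 3 rises were, or lost, as Slc16a1 was, rest on that library. They are no check on sex, here or below. The 9 calls at 4.5 weeks were also made with the sex term, but all libraries of that time read as female. The term therefore cannot adjust the comparison at 4.5 weeks, and keeping these calls is no check on them. The 3 cKO-labelled libraries lay wholly outside the range of the 3 controls in 7 of the 10 genes at 4 weeks (3 above, 4 below), against 47.2% of all genes (24.1% above and 23.1% below), and in 9 of 10 at 4.5 weeks (4 above, 5 below), against 72.3% (36.8% above and 35.6% below).

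**Figure D1:**
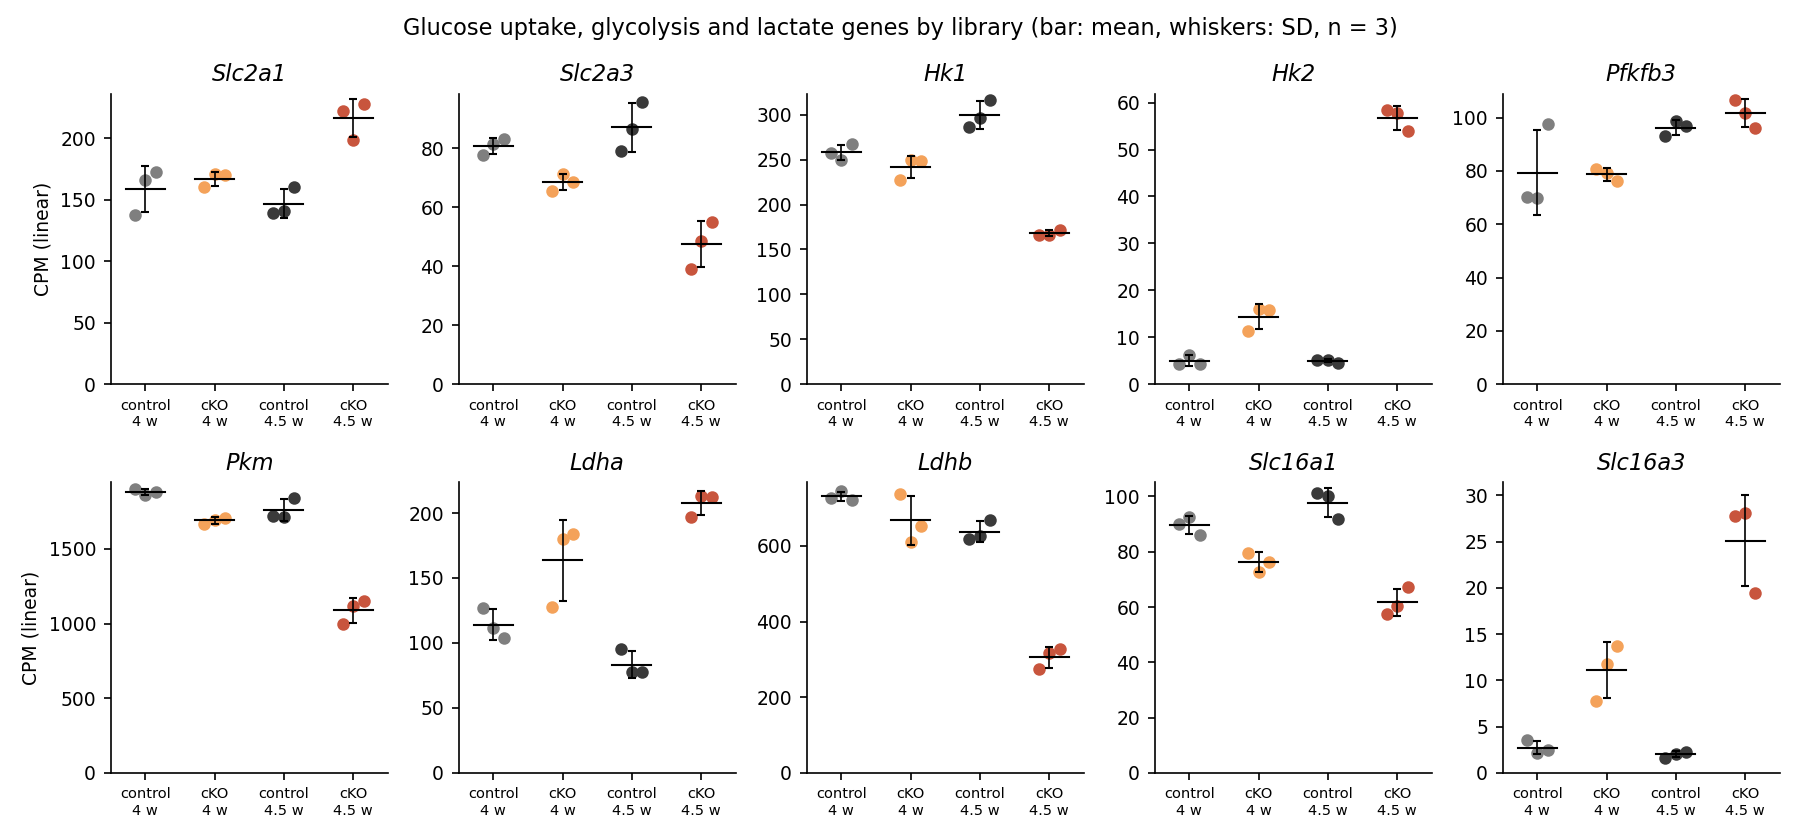
CPM of each of the 10 genes on linear axes that start at 0, with 1 point per library in the 4 groups of 3, a bar at each group's mean and whiskers of 1 SD. Hk2, Slc16a3, Ldha and Slc2a1 stand above controls and 5 genes below them at 4.5 weeks, and Pfkfb3 overlaps between the labels at both times.

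Of the glucose carriers, Slc2a1 rose and Slc2a3 fell at 4.5 weeks, and neither was called at 4 weeks. Slc2a1, the transporter of vessels and glia, measured 137, 166 and 172 CPM in controls and 160, 171 and 170 CPM in the cKO-labelled libraries at 4 weeks. These ranges overlapped, and the log2 fold change was 0.07 ± 0.088 (SE; adjusted p = 0.55) with an interval of -0.12 to 0.26. Without control library 1 it was -0.02. The 4.5-week controls measured 139, 140 and 160 CPM and the cKO-labelled libraries 222, 198 and 227 CPM. All 3 were above every control, and Slc2a1 rose 1.47-fold (interval 1.29 to 1.68; log2 fold change 0.56 ± 0.088 SE; adjusted p = 9.7e-05). The effect grew by 0.48 log2 units between the times (adjusted p = 0.0073). Without control libraries 1 and 2 of 4.5 weeks that growth was 0.35 and its adjusted p was 0.11, in a range of 0.00059 to 1 over 23 alternatives. Reads of Slc2a1 may include the predicted gene Gm12868, which overlaps its exons on the opposite strand, because the library kit does not mark strand.

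Slc2a3, the transporter of neurons, fell. Controls at 4 weeks held 77.6, 81.3 and 83.2 CPM and the cKO-labelled libraries 65.6, 71.2 and 68.6 CPM. Although these did not overlap, the difference was not called (log2 fold change -0.24 ± 0.10 SE; adjusted p = 0.089). It was called without library 1 or without library 3 of the 4.5-week cKO-labelled libraries (adjusted p 0.028 and 0.048), and the adjusted p ranged from 0.014 to 1 over 24 alternatives. The 4.5-week controls read 79, 86.5 and 95.7 CPM and the cKO-labelled libraries 39.2, 48.4 and 54.9 CPM. Slc2a3 was then lower by 45.5% (log2 fold change -0.88 ± 0.10 SE; adjusted p = 7.5e-06), and the effect differed from that at 4 weeks by -0.64 (adjusted p = 0.0036).

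The hexokinases moved apart as well. Hk1, the constitutive hexokinase of brain and cord, held 257, 250.03 and 267 CPM in the 4-week controls and 227, 249.53 and 249 CPM in the cKO-labelled libraries. The highest of the latter lay just under the lowest control, and the difference was not called (log2 fold change -0.09 ± 0.057 SE; adjusted p = 0.22). The next groups stood far apart, at 286, 296 and 316 CPM in the 4.5-week controls and 166, 167 and 172 CPM in the cKO-labelled libraries. Hk1 was lower there by 43.8% (log2 fold change -0.83 ± 0.058 SE; adjusted p = 5.4e-08), a difference of -0.74 from the effect at 4 weeks (adjusted p = 1.6e-05). The antisense gene Hk1os overlaps its exons, and its reads cannot be told apart from those of Hk1.

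Hk2, the inducible hexokinase of muscle, fat and activated immune cells, was scarce in controls. It measured 4.24, 6.34 and 4.37 CPM in the controls at 4 weeks and 11.3, 16.1 and 15.9 CPM in the cKO-labelled libraries. Every library labelled cKO was above every control, and the rise was 2.91-fold (interval 2.28 to 3.70; log2 fold change 1.54 ± 0.16 SE; adjusted p = 1.5e-05). Later levels were 5.15, 5.24 and 4.61 CPM in controls and 58.4, 57.8 and 53.9 CPM in the cKO-labelled libraries. That was an 11.3-fold rise (interval 8.85 to 14.5; log2 fold change 3.5 ± 0.17 SE; adjusted p = 2.2e-09), larger than at 4 weeks by 1.96 log2 units (adjusted p = 2.1e-05). No alternative ended either call.

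Pfkfb3, which makes the small phosphate ester that activates phosphofructokinase, was the member with no call. Its 4-week controls measured 70.3, 69.8 and 97.7 CPM and the cKO-labelled libraries 80.8, 79.1 and 76.2 CPM, all inside the controls' range. The log2 fold change was -0.01 ± 0.11 (SE; interval -0.24 to 0.22; adjusted p = 0.95). Control library 3 set this value: without it the log2 fold change was 0.17 and called (adjusted p = 0.048, the lowest of a range up to 1 over 24 alternatives). At 4.5 weeks it stood at 93.1, 98.6 and 97 CPM against 107, 102 and 96.2 CPM, again overlapping. The log2 fold change was 0.08 ± 0.10 (SE; interval -0.15 to 0.31; adjusted p = 0.53), so a change beyond 0.902-fold to 1.24-fold lay outside the interval.

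Pkm, the pyruvate kinase gene, had the highest level per kilobase of the 10. In the 4-week groups it held 1904, 1861 and 1880 CPM in controls and 1668, 1695 and 1711 CPM in the cKO-labelled libraries. The groups did not overlap, yet the difference of -0.15 ± 0.064 (SE) was not called (adjusted p = 0.080). Leaving out library 1 of the 4.5-week cKO-labelled libraries brought the adjusted p to 0.044, within a range of 0.013 to 1 over 24 alternatives. At 4.5 weeks controls held 1718, 1715 and 1844 CPM and the cKO-labelled libraries 996, 1119 and 1149 CPM. Pkm was then lower by 38.2% (log2 fold change -0.69 ± 0.065 SE; adjusted p = 8.3e-07), and the effect differed from the earlier one by -0.54 (adjusted p = 4.5e-04). These counts sum the M1 and M2 splice forms of the gene, and the predicted gene Gm49759 overlaps it on the same strand.

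Among the lactate dehydrogenase subunits, Ldha rose at both times and Ldhb fell at 4.5 weeks. Ldha encodes the subunit typical of glycolytic tissue. It measured 127, 111 and 104 CPM in the 4-week controls and 128, 180 and 184 CPM in the cKO-labelled libraries, where library 1 was barely above the highest control. The rise was 1.44-fold (interval 1.18 to 1.74; log2 fold change 0.52 ± 0.13 SE; adjusted p = 0.0069). In the 4.5-week groups it measured 95.2, 77.3 and 77.4 CPM and then 197, 214 and 212 CPM, with a wide gap between the labels. There Ldha rose 2.49-fold (interval 2.05 to 3.03; log2 fold change 1.32 ± 0.13 SE; adjusted p = 1.4e-06), 0.79 log2 units more than at 4 weeks (adjusted p = 0.0037).

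Ldhb encodes the subunit typical of oxidative tissue such as heart. At 4 weeks it held 726, 745 and 722 CPM in controls and 738, 612 and 653 CPM in the cKO-labelled libraries, which overlapped through library 1. The log2 fold change was -0.13 ± 0.080 (SE; adjusted p = 0.22), and without library 1 it was -0.22 and called (adjusted p = 0.033, the lowest of a range up to 1 over 24 alternatives). Controls at 4.5 weeks read 618, 625 and 669 CPM and the cKO-labelled libraries 274, 316 and 326 CPM. Ldhb was then lower by 52.1% (log2 fold change -1.06 ± 0.081 SE; adjusted p = 1.3e-07), and its effect differed from that at 4 weeks by -0.93 (adjusted p = 3.7e-05). This was the lowest log2 fold change of the 10 genes.

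Of the lactate carriers, Slc16a1 was lower at both times. Its 4-week levels were 90.1, 92.7 and 86 CPM in controls and 79.6, 72.6 and 76.4 CPM in the cKO-labelled libraries. The groups did not overlap, and Slc16a1 fell by 15% (log2 fold change -0.23 ± 0.066 SE; adjusted p = 0.015). This call was lost with the sex term (-0.23; adjusted p = 0.12), without control library 2 (-0.21; adjusted p = 0.05) and without library 2 of the cKO-labelled libraries (-0.20; adjusted p = 0.064), in a range of 0.0042 to 1 over 24 alternatives. At 4.5 weeks the levels were 101, 100.3 and 91.7 CPM against 57.6, 60.4 and 67.2 CPM. The fall was then 36.8% (log2 fold change -0.66 ± 0.067 SE; adjusted p = 1.7e-06), differing from the earlier effect by -0.43 (adjusted p = 0.0028).

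Slc16a3, the lactate exporter, rose most of the 10 genes at both times. It was scarce in controls, at 3.55, 2.18 and 2.43 CPM at 4 weeks, and held 7.77, 11.8 and 13.7 CPM in the cKO-labelled libraries. No library overlapped, and the rise was 4.05-fold (interval 2.81 to 5.84; log2 fold change 2.02 ± 0.24 SE; adjusted p = 4.6e-05). The 4.5-week controls held 1.63, 2.02 and 2.28 CPM and the cKO-labelled libraries 27.7, 28.1 and 19.4 CPM. The rise had reached 12.6-fold (interval 8.60 to 18.6; log2 fold change 3.66 ± 0.26 SE; adjusted p = 5.7e-08), 1.64 log2 units more than at 4 weeks (adjusted p = 0.0019).

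**Figure D2:**
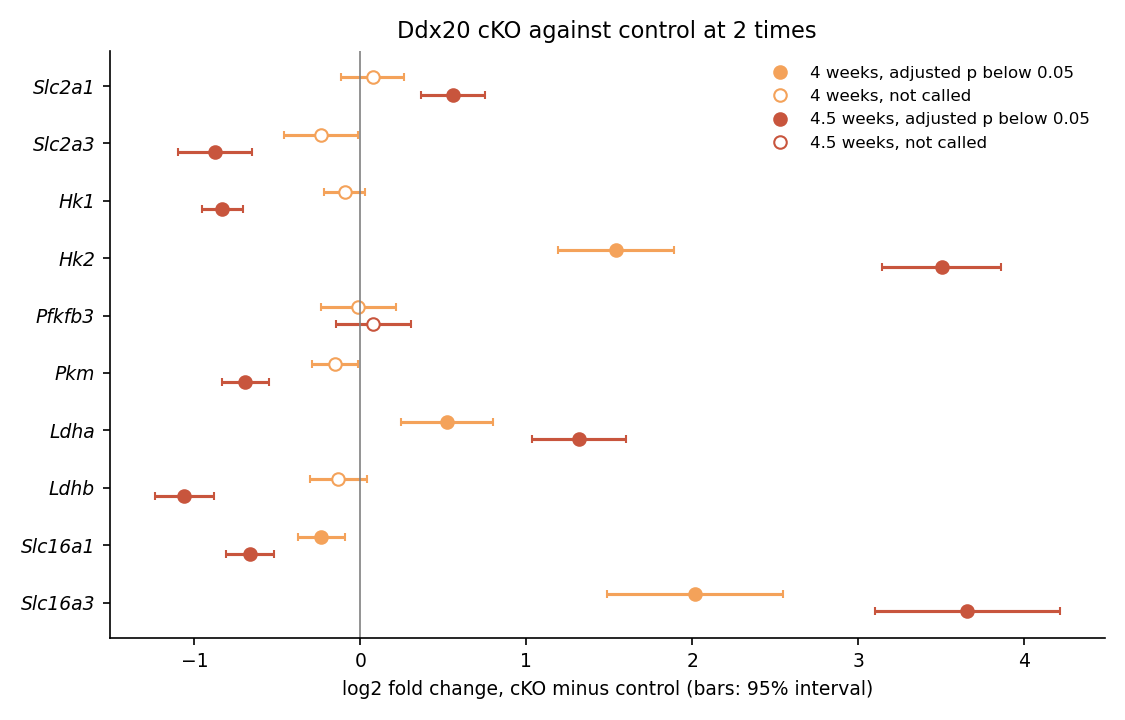
Log2 fold change of each of the 10 genes, cKO-labelled libraries minus controls, at 4 and 4.5 weeks, with 95% intervals; filled points are called and open points are not. The 9 genes other than Pfkfb3 lie farther from 0 at 4.5 weeks than at 4 weeks, from -1.06 for Ldhb to 3.66 for Slc16a3.

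Between the 2 control groups, 2 of the 10 genes were called, Hk1 higher by 0.21 (adjusted p = 0.024) and Ldha at -0.45 (adjusted p = 0.032), against 16.7% of all genes (9.53% higher and 7.21% lower). Time, sex and the separate tables of the 2 times cannot be told apart here. Neither call held with a sex term, with which 0 of all genes were called higher and 0 lower between controls. That loss is therefore not particular to Hk1 or Ldha. Both calls were also lost when control library 1 or 2 of 4 weeks, or control library 2 or 3 of 4.5 weeks, was left out. Adjusted p ranged from 0.0011 to 1 for Hk1 and from 0.0041 to 1 for Ldha over 23 alternatives.

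Ratios between 2 genes of a family were compared within each library, where gene length cancels between groups. Ldha per Ldhb was 0.175, 0.149 and 0.144 in the 4-week controls and 0.173, 0.294 and 0.281 in the cKO-labelled libraries. At 4.5 weeks it was 0.154, 0.124 and 0.116 in controls and 0.719, 0.675 and 0.65 in the cKO-labelled libraries. The groups overlapped at 4 weeks (1.56-fold, exact 2-sided permutation p = 0.2) and not at 4.5 weeks (5.23-fold, exact p = 0.1). With 3 against 3 libraries, 0.1 is the smallest p this test can give, so no ratio could pass the threshold.

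Hk2 per Hk1 was between 0.0146 and 0.0253 in all 6 controls. It was 0.0496, 0.0646 and 0.0638 in the cKO-labelled libraries at 4 weeks and 0.352, 0.347 and 0.313 at 4.5 weeks. Slc16a3 per Slc16a1 was between 0.0161 and 0.0394 in controls, against 0.0976, 0.162 and 0.179 and then 0.482, 0.465 and 0.289. The hexokinase ratio was 3.10-fold and 20.2-fold that of controls at 4 and 4.5 weeks, and the carrier ratio 4.76-fold and 20.0-fold. Slc2a3 per Slc2a1 went the other way, from 0.483 to 0.565 in 4-week controls to 0.404 to 0.418 in the cKO-labelled libraries (0.803-fold), and from 0.567 to 0.616 to 0.176 to 0.244 at 4.5 weeks (0.368-fold). None of these 6 comparisons overlapped. Each gave an exact p of 0.1, and over the 8 comparisons the adjusted p was 0.114 for these and for Ldha per Ldhb at 4.5 weeks and 0.2 for Ldha per Ldhb at 4 weeks.

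**Figure D3:**
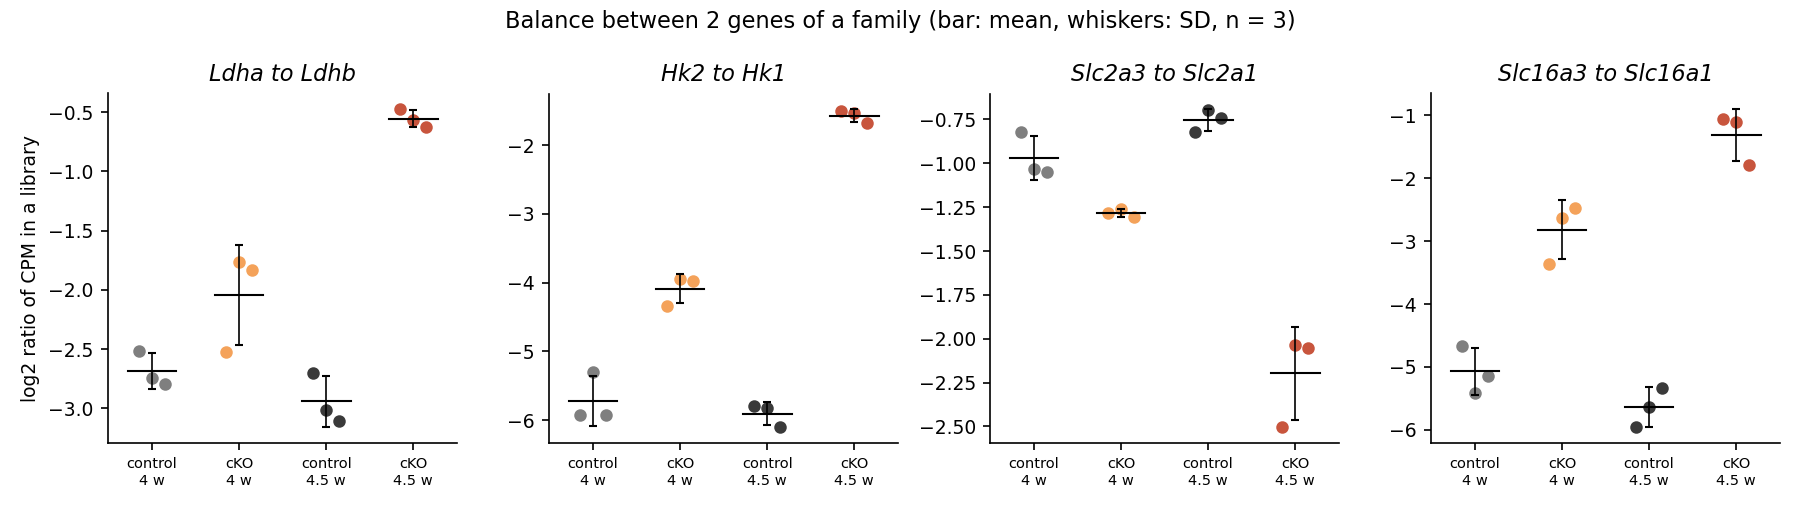
Log2 ratio of CPM between 2 genes of a family in each library, with 1 point per library in the 4 groups, a bar at the mean and whiskers of 1 SD. The ratios Hk2 to Hk1 and Slc16a3 to Slc16a1 climb in the cKO-labelled libraries at 4 and again at 4.5 weeks, Slc2a3 to Slc2a1 drops, and Ldha to Ldhb overlaps with controls at 4 weeks.

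Levels of different genes were compared only per kilobase of transcript, using each gene's longest coding transcript in GENCODE M21. Pkm led the 4-week controls at 774 ± 8.8 CPM per kilobase (SD, n = 3), followed by Ldhb at 561 ± 9.6. Then came Ldha at 62.8 ± 6.5, Hk1 at 60.4 ± 2.0 and Slc2a1 at 48.6 ± 5.7, of which Ldha and Hk1 overlapped. Slc2a3, Slc16a1 and Pfkfb3 overlapped their neighbours at 20.4 ± 0.71, 20.2 ± 0.76 and 16.5 ± 3.3, and Hk2 and Slc16a3 came last and overlapped at 0.904 ± 0.21 and 0.628 ± 0.17.

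The order per kilobase changed in the cKO-labelled libraries at 4.5 weeks. Pkm at 447 ± 33 and Ldhb at 234 ± 21 still led, and Ldha followed at 114 ± 5.0 with no overlap. Slc2a1 at 66.2 ± 4.7 now stood above Hk1 at 39.3 ± 0.76, whereas Hk1 at 70.0 ± 3.6 stood above Slc2a1 at 45.0 ± 3.6 in the controls of that time. Pfkfb3 at 21.2 ± 1.1 stood above Slc16a1 at 13.9 ± 1.1 and Slc2a3 at 12 ± 2.0, which overlapped each other. Hk2 reached 10.3 ± 0.45 and Slc16a3 5.79 ± 1.1. Hk2 overlapped Slc2a3, and Slc16a3 was the lowest of the 10.

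The rest of the pathway was read from 7 lists of 76 other genes, of which 75 were tested. At 4 weeks 14 were called higher and 24 lower, against 20.1% and 17.2% of all genes, with a median log2 fold change of -0.12. With the sex term these were 13 and 15. At 4.5 weeks 21 were higher and 38 lower, against 33.3% and 32.6% of all genes, with a median of -0.31. The effect differed between the times upward in 14 and downward in 26, against 18.7% and 21.9% of all genes.

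Most enzymes of the middle of glycolysis fell at 4.5 weeks. Of 12 enzymes between hexokinase and pyruvate kinase, 0 were called higher and 4 lower at 4 weeks (median -0.14), and 0 higher and 10 lower at 4.5 weeks (median -0.56). Gpi1 and Pfkl, named after their values were seen, were called at neither time. The muscle-type phosphofructokinase Pfkm went from 434 ± 16.1 to 204 ± 7.89 CPM between control and label at 4.5 weeks (SD, n = 3; log2 fold change -1.09 ± 0.073 SE; adjusted p = 4.1e-08), after -0.50 at 4 weeks (adjusted p = 1.8e-04). The platelet-type Pfkp fell by 0.34 and 1.30 on the log2 scale at the 2 times (adjusted p = 6.1e-04 and 1.6e-09). The neuronal enolase Eno2 was not called at 4 weeks (-0.17, adjusted p = 0.080) and was lower at 4.5 weeks (-1.49, adjusted p = 3.6e-09). Aldoc, the aldolase typical of astrocytes, was lower at both (-0.88 and -1.26, adjusted p = 2.9e-04 and 3.2e-06).

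Among 10 other sugar transporters and hexokinases, 2 were called higher and 0 lower at 4 weeks (median 0.03), and 3 higher and 1 lower at 4.5 weeks (median 0.16). Slc2a9, a urate and sugar transporter, measured 0.839, 1.02 and 0.588 CPM in the 4-week controls and 19.3, 20.0 and 22.7 CPM in the cKO-labelled libraries. The cKO-labelled libraries were far above the controls at both times. The log2 fold change was 4.67 ± 0.16 (SE) at 4 weeks and 4.37 ± 0.16 at 4.5 weeks (adjusted p = 1.7e-09 and 2.7e-10), and the difference of -0.30 was not called (interval -0.78 to 0.18; adjusted p = 0.31). Hk3, the hexokinase of myeloid cells, behaved like Hk2 in direction, at 2.49 ± 0.27 and then 4.74 ± 0.28 (adjusted p = 1.9e-05 and 1.4e-08). Slc2a13, an inositol transporter, was the called fall at 4.5 weeks (-0.95, adjusted p = 3.3e-05).

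Of 14 genes that handle monocarboxylates and pyruvate, 1 was called higher and 6 lower at 4 weeks (median -0.175), and 3 higher and 10 lower at 4.5 weeks (median -0.77). The 6 lower at 4 weeks became 2, Dlat and Pdk2, with the sex term, and 3 without control library 1, or library 2 or 3 of the cKO-labelled libraries, of that time. Pdhb at 4 weeks (-0.19, adjusted p = 0.042) was among those lost with the sex term (-0.23, adjusted p = 0.12). Its call held in only 12 of 24 alternatives. It was also lost with upper quartile scaling, with no filter and when any control library of 4 weeks was left out. The falls at 4.5 weeks included the pyruvate dehydrogenase subunits Pdhb (-0.99, adjusted p = 5.6e-08) and Dlat (-1.13, adjusted p = 1.6e-08), and Mpc2 of the mitochondrial pyruvate carrier (-1.01, adjusted p = 5.7e-08). Kinases that switch pyruvate dehydrogenase off were split: Pdk2 fell (-0.72 and -1.04 at the 2 times; adjusted p = 9.9e-05 and 8.3e-07) and Pdk4 rose (0.83 and 1.18; adjusted p = 4.8e-04 and 5.3e-06).

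Pdk1 and the neuronal lactate carrier MCT2, encoded by Slc16a7, reversed between the times. Pdk1 was lower at 4 weeks (-0.33, adjusted p = 0.0039), higher at 4.5 weeks (0.73, adjusted p = 1.4e-06), and differed between them by 1.06 (adjusted p = 6.3e-06). Slc16a7 was lower at 4 weeks (-0.34, adjusted p = 0.034), higher at 4.5 weeks (0.52, adjusted p = 0.0011), and differed by 0.86 (adjusted p = 8.8e-04). Their falls at 4 weeks were not called with a sex term (adjusted p = 0.065 and 0.24). The rise of Slc16a7 at 4.5 weeks was not called without control libraries 1 and 2 of that time (adjusted p = 0.068). Its fall at 4 weeks was also lost without control library 1 or 3 of 4 weeks, or without library 2 or 3 of the 4-week cKO-labelled libraries.

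Of 10 genes that control glycolysis, 9 had enough counts to be tested, and 2 were called higher and 2 lower at 4 weeks (median 0.20), and 5 higher and 3 lower at 4.5 weeks (median 0.79). Myc, a transcription factor known to drive glycolytic genes, rose by 1.37 ± 0.27 (SE) and 2.75 ± 0.27 (adjusted p = 0.0016 and 1.5e-06). Pfkfb4, a relative of Pfkfb3, rose by 0.40 and 0.79 (adjusted p = 0.0026 and 2.5e-06). Ppargc1a, a coactivator of mitochondrial genes, fell by 0.42 and 1.69 (adjusted p = 0.0039 and 1.0e-08).

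Glycogen genes and the pentose phosphate pathway were called in like numbers at both times. Of 10 glycogen genes 2 were higher and 7 lower at each time (medians -0.30 and -0.62). Brain and muscle glycogen phosphorylases fell, Pygb by 0.58 and 1.37 and Pygm by 1.34 and 2.0 on the log2 scale (adjusted p at most 2.0e-04). The phosphatase-targeting gene Ppp1r3c fell by 0.69 and 0.60 (adjusted p = 8.5e-05 and 6.1e-05). The phosphoglucomutase Pgm2 fell by 0.32 and 0.78 (adjusted p = 0.0024 and 3.5e-07), while the liver-type Pygl rose by 0.72 and 1.93 (adjusted p = 5.3e-04 and 1.9e-08). The gene named Pgm2 in the counts is Pgm1 in the reference gene names. The gene named Pgm1 in the counts, which rose by 0.66 and 0.99 and was called at both times, is Pgm2 there. With the sex term 4 glycogen genes were lower at 4 weeks, and Pgm2 was not among them (adjusted p = 0.053). Of 7 pentose phosphate genes 4 were higher and 1 lower at each time (medians 0.385 and 0.549). G6pdx of the oxidative branch, named after its values were seen, was called at neither time (-0.005 and -0.04). Pgd and Pgls of the oxidative branch rose by 0.38 and 0.47 at 4 weeks (adjusted p = 0.0016 and 0.0032) and by 1.13 and 1.38 at 4.5 weeks (adjusted p = 3.5e-08 and 1.0e-07), the epimerase Rpe rose by 0.42 and 0.62 (adjusted p = 5.3e-04 and 4.8e-06), and the transketolase Tkt fell by 0.28 and 0.66 (adjusted p = 6.2e-04 and 8.5e-08).

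Hypoxia-response genes did not share a direction. Of 13 genes, 3 were higher and 4 lower at 4 weeks (median -0.0023), and 4 higher and 6 lower at 4.5 weeks (median -0.07). The 3 higher at 4 weeks became 1 without control library 1, or library 2 or 3 of the cKO-labelled libraries, of that time, and 1 with each time fitted alone. The angiogenic factor Vegfa fell by 0.73 and 1.04 (adjusted p = 4.4e-05 and 3.6e-07) and Ndrg1 by 0.88 and 1.07 (adjusted p = 8.8e-05 and 3.4e-06), whereas the histone demethylase Kdm3a rose by 0.40 and 0.97 (adjusted p = 0.0035 and 7.0e-07). Bnip3 was not called at 4 weeks (-0.18, adjusted p = 0.090) and fell at 4.5 weeks (-0.97, adjusted p = 2.2e-07). The other called genes at 4.5 weeks are named after their values were seen. Car9 (3.37, from a mean of 0.12 to 1.3 CPM), P4ha1 (1.26) and Adm (1.23) were higher. Car12 (-0.60), Egln1 (-0.30) and Bnip3l (-0.22) were lower. Hif1a, of the list that controls glycolysis and also named after its values were seen, was not called at 4 weeks (0.20) and was higher at 4.5 weeks (0.83).

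**Figure D4:**
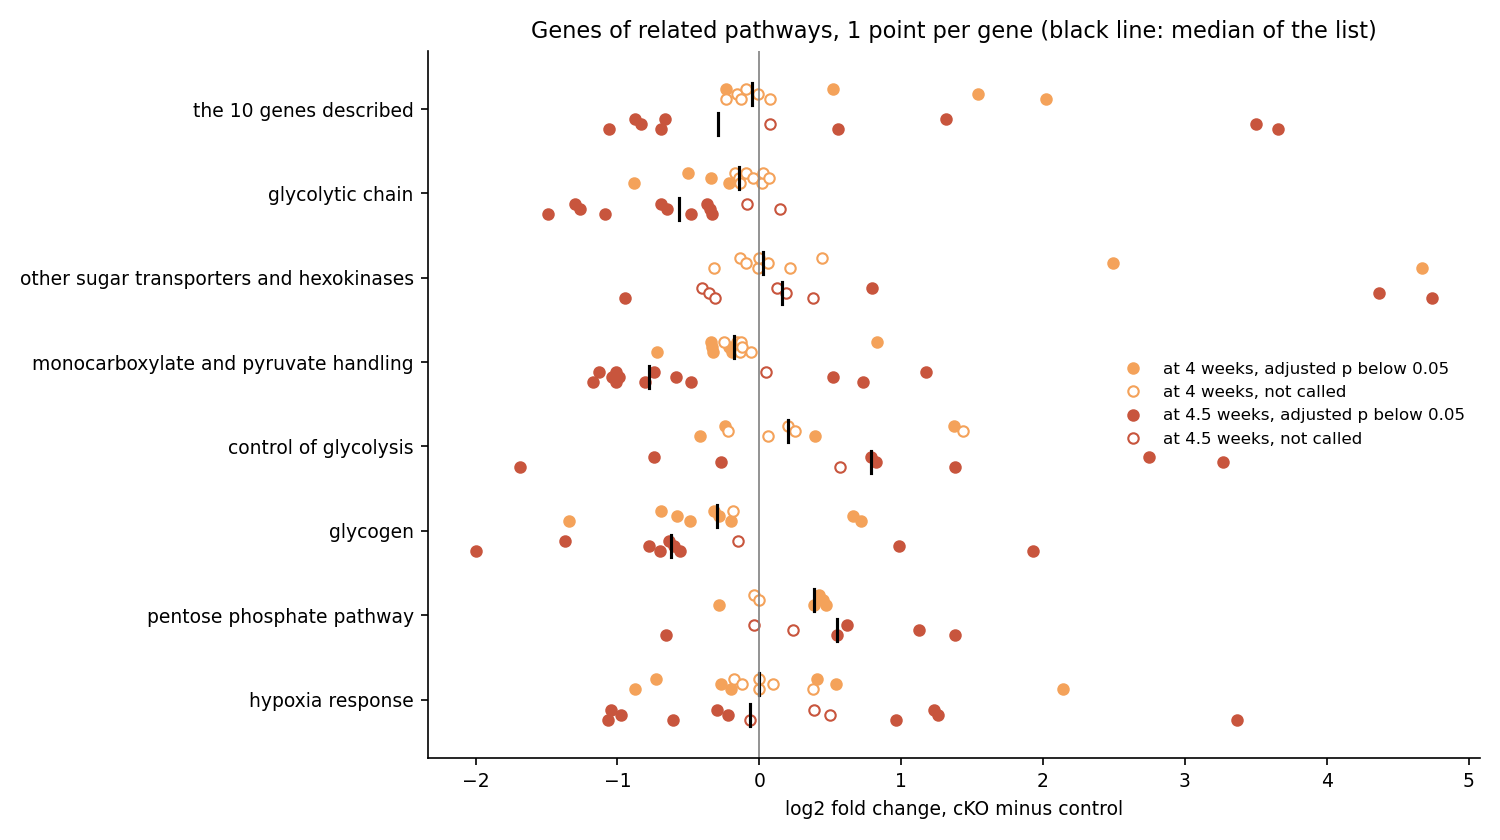
Log2 fold change of the 10 genes and of each tested gene of the 7 lists at 4 and 4.5 weeks, 1 point per gene (filled where called, open where not), with a black line at each median. The glycolytic chain has its median at -0.14 and -0.56 and the pentose phosphate list at 0.385 and 0.549.

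Markers of whole cell classes moved over the same libraries. In bulk tissue, fewer cells of a type and less RNA per cell cannot be told apart. Summed microglia and macrophage markers ran from 403 to 412 CPM in 4-week controls, from 946 to 1507 CPM in the cKO-labelled libraries, from 370 to 383 CPM in 4.5-week controls and from 5583 to 6063 CPM in the last group. Of 10 such markers 9 were called higher at 4 weeks and 10 at 4.5 weeks. Hk2, Hk3 and Slc16a3 rose at 4 weeks and further at 4.5 weeks. Slc2a9 did not rise further: its mean in the cKO-labelled libraries was 20.65 CPM at 4 weeks and 20.87 CPM at 4.5 weeks. The part of the microglial change in the rise of these genes was not tested.

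Neuronal markers summed to between 9221 and 10790 CPM in 4-week controls and between 8095 and 8838 CPM in the cKO-labelled libraries. At 4.5 weeks they summed to between 11810 and 12440 CPM and between 2947 and 3165 CPM. Of 9 markers 2 were called lower at 4 weeks and 9 at 4.5 weeks, the time at which Slc2a3, Hk1, Pkm, Ldhb and Eno2 were lower. The part of the neuronal change in those falls was not tested.

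Oligodendrocyte markers summed to between 33540 and 36170 CPM and between 14310 and 19430 CPM at 4 weeks, and to between 30590 and 31060 CPM and between 10840 and 11870 CPM at 4.5 weeks. All 10 were called lower at 4 weeks and 9 of 10 at 4.5 weeks, the times at which Slc16a1 was lower, and the part of this change in the fall of Slc16a1 was not tested. Endothelial markers ran from 259 to 338 CPM and from 232 to 310 CPM at 4 weeks, and from 290 to 332 CPM and from 378 to 474 CPM at 4.5 weeks. Of 9, 1 was higher and 3 lower at 4 weeks and 5 higher and 0 lower at 4.5 weeks, the time at which Slc2a1 rose, and their part in it was not tested.

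Astrocyte markers ran from 5170 to 5741 CPM and from 2863 to 4589 CPM at 4 weeks, and from 6014 to 6279 CPM and from 4910 to 5377 CPM at 4.5 weeks, with 5 of 7 called lower at each time and 1 and then 2 higher. Red blood cell markers ran from 126 to 285 CPM and from 64.2 to 320 CPM at 4 weeks, and from 47.2 to 57.9 CPM and from 1.96 to 8.10 CPM at 4.5 weeks, with 0 of 5 and then 5 of 5 called lower. Neutrophil markers summed to at most 11.3 CPM in any library, 1 of 4 tested was called higher at 4.5 weeks, and Ly6g had no count in 6 of the 12 libraries. Muscle markers were called lower in 6 of 7 and Schwann cell and ganglion markers in 2 of 6 at 4.5 weeks, the comparison that holds the 2 controls that stood apart. At 4 weeks 0 of the muscle markers were called, and 2 of the Schwann cell and ganglion markers were higher and 1 lower.

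**Figure D5:**
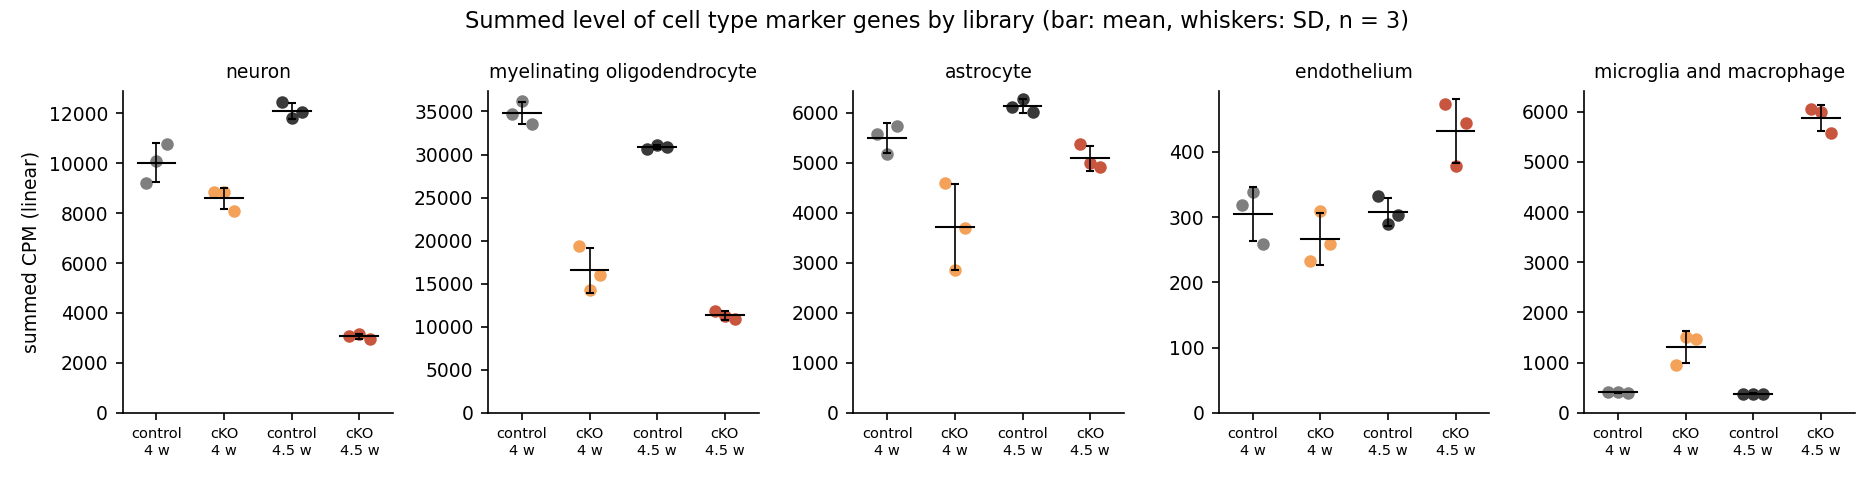
Summed CPM of the marker genes of 5 cell classes on linear axes that start at 0, 1 point per library in the 4 groups, with a bar at the mean and whiskers of 1 SD. Microglia and macrophage markers rise to between 5583 and 6063 CPM and neuronal markers drop to between 2947 and 3165 CPM in the cKO-labelled libraries at 4.5 weeks.

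Of the members, 3 were compared with 13062 other genes of mean log2 CPM of at least 1 for likeness of pattern, measured as the mean absolute difference of centred log2 CPM over the 12 libraries. Nearest to Slc16a1 were Gpatch11 (0.0548), the glycogen gene Ugp2 (0.0583) and the flippase subunit gene Tmem30a (0.0593). Hk2 lay nearest to Il10ra (0.149), which encodes an interleukin receptor chain, and to Fes and Ikzf1 (0.157 each), a kinase and a transcription factor of blood cells. Nearest to Slc2a1 were Ppp4r3a (0.0642), Gga2 (0.0655) and Atp13a1 (0.0680). Il10ra rose by 1.56 and 3.48 at the 2 times, against 1.54 and 3.5 for Hk2. It was picked for its likeness to Hk2 over these same libraries, so the like changes follow from the pick. The points share libraries and scaling, and these distances are a description.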

How the data were processed

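Whole spinal cord mRNA was measured in 12 libraries built with an unstranded kit (TruSeq RNA v2). The authors deposited the estimated counts of each time as a separate table, raw with respect to depth and length. The tools STAR and RSEM and the build mm39 appear, per the submitters' processing notes, and tool versions and parameters are not given in the sources used here. Between 3.25% and 3.81% of the values of a library were not whole numbers.

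Estimated counts were rounded to whole numbers before use in edgeR 4.0.16 (R 4.3.3). Its filter on low counts left 19278 genes, which included all 10 members, left out Fbp2 and Ly6g, and scaling used trimmed means of M values. A single model with a mean per group held all 12 libraries, and p-values of the quasi-likelihood F test were adjusted over these genes with the Benjamini-Hochberg method. Ratios within a library were compared with exact 2-sided permutation tests. The fit was tested on simulated counts of 19278 genes. Of the better-counted genes, 67 were changed 1.5-fold, 67 were changed 2-fold and 66 were changed 4-fold at 4 weeks. The fit recovered 59.7%, 95.5% and 98.5% of them, and 5.06% of its calls were false. In the data 37.2% of genes were called at 4 weeks, so these shares need not hold there. Replicate numbers were not used to pair the samples in this model.

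The members and lists were chosen with earlier results of these data known. The rule named at most 3 called genes of a list at each time, those with the smallest p, and genes called in opposite directions at the 2 times. Nearest patterns used a prior count of 0.5. Pgm1 and Pgm2 are named as the count tables name them, and the reference gene names hold these 2 symbols the other way round. Promoters came from RefSeq (GRCm38.p6) and transcript lengths and exon overlaps from GENCODE M21. No other coordinates are given because that build differs from the one of the counts. Alternatives were size factors of DESeq2 1.42.0 and its Wald test, upper quartile scaling, no filter, a minimum of 1 CPM in 3 libraries, limma-voom (limma 3.58.1), a test against a 1.5-fold change, each time fitted alone, a replicate block, a sex term read from Xist, mitochondrial and haemoglobin genes left out, a fit without control libraries 1 and 2 of 4.5 weeks, and leaving out every library singly.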

Additional observations from a re-analysis of the deposited data

Results flagged for a closer look

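The effect of the label at 4.5 weeks differed from that at 4 weeks, in the test of the difference itself (edgeR, all 12 libraries), in 9 of the 10 genes. On the log2 scale it was higher at 4.5 weeks by 1.96 for Hk2, by 1.64 for Slc16a3, by 0.79 for Ldha and by 0.48 for Slc2a1. It differed by -0.93 for Ldhb, -0.74 for Hk1, -0.64 for Slc2a3, -0.54 for Pkm and -0.43 for Slc16a1. Of all genes tested, 40.7% differed in this way. Groups of 3 libraries were too small to test for single libraries that stand apart in a gene.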

How the results depend on the processing

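Of the counts and ratios, 212 values under alternatives were alike to those reported and 32 were not. A count was taken as alike within 1.5 times the reported one. A ratio was taken as alike where its direction was the same, whatever its size. A replicate block leaves the value of a ratio unchanged. Leaving out 1 library cannot turn the direction of a ratio whose groups do not overlap. Such values were therefore alike in advance and are no check. Members called lower at 4 weeks numbered 1, but 2 with the Wald test of DESeq2, with each time fitted alone and with the replicate block, 0 with a sex term and 0 against a 1.5-fold change, and 0 to 3 when each library was left out in turn. Against a 1.5-fold change 3 members were lower at 4.5 weeks, and the difference between the times was called upward in 2 and downward in 1. Between controls, the 1 member called higher became 0 with no filter, against a 1.5-fold change and with a sex term. It became 2 with DESeq2, and 0 to 2 with libraries left out in turn. The 1 member called lower between controls became 0 against a 1.5-fold change, with the replicate block and with the sex term. With libraries left out in turn it became 0 to 2. With the sex term 0 of all genes were called higher and 0 lower between controls. The cause of these shifts was not tested.

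Signs turned only in values that were not called in the reported fit. Pfkfb3 at 4 weeks was 0.000887 with upper quartile scaling, 6.76e-05 with a minimum of 1 CPM, 0.00594 with limma-voom, and, with single libraries left out, -0.0955 to 0.167, turning at 0.167 and 0.0104 without control library 3 or library 3 labelled cKO of 4 weeks. Its difference between the times ran from -0.0931 (without that control) to 0.168 with single libraries left out. Slc2a1 at 4 weeks ran from -0.0222 (without control library 1) to 0.136. Between controls Slc2a1 was 0.0168 without control libraries 1 and 2 of 4.5 weeks, and Slc16a3 was 0.0236 with the sex term. Hk2 between controls was -0.027 with upper quartile scaling, -0.103 without those 2 controls, -0.0944 to 0.214 with single libraries left out, and -0.0944, -0.0727, -0.0074, -0.00917 and -0.0242 without control library 1 or 3 of 4 weeks, library 1 labelled cKO of 4 weeks, or control library 1 or 2 of 4.5 weeks.

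Correlations of same-numbered libraries' deviations from their group means ran from -0.129 to 0.166. Libraries of different numbers were not compared, so this does not show whether the numbers pair the samples. With the replicate block the calls of members changed in Slc2a3 at 4 weeks (adjusted p = 0.033, called) and Ldha between controls (adjusted p = 0.057, lost). A 1.5-fold change was recovered in 59.7% of simulated cases, so a missed call does not show that a gene did not change.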
